A study of Mus musculus with 18 samples.

Results

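Genes whose expression differed between day 12 and day 21 of the reprogramming of fibroblasts into blood cells were examined in SL and SFGL cultures, relative to untreated fibroblasts (uFIB). For each gene the change from day 12 to day 21 was taken on log2(FPKM + 1), and the change of uFIB was subtracted from that of SL and from that of SFGL to give a net change for each. FPKM counts fragments per length of transcript and per size of library. Of 19299 genes off the sex chromosomes, 6651 reached 10 FPKM in at least 1 of the 4 treated libraries, and 5365 of these had net changes of the same sign in SL and SFGL. The net change was above 0 in 2195 and below 0 in 3170 of them, and it had opposite signs or was 0 in the remaining 1286. At the limit of 10 FPKM, Mtmr14 was just inside with a highest treated value of 10.0006 FPKM and Irx1 just outside with 9.99781.

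All cultures were mouse embryonic fibroblasts (MEFs) of strain 129 prepared at embryonic day 14.5. They came from wild type embryos or from iTal1-2A-GFP transgenic embryos, in which rtTA and a TRE cassette switch on Tal1 in the presence of doxycycline. The labels do not say which of these sources gave each library. SL cultures received Tal1 (also called Scl) and Lmo2. SFGL cultures received Tal1, Fli1, Gata2 and Lmo2, and uFIB received none of these factors. According to the methods of the study, factors other than inducible Tal1 were delivered with lentiviral vectors, fibroblasts were first depleted of cells with blood or endothelial surface proteins, and the cultures were kept in a medium with blood cytokines. Such cultures can hold several cell types, and in these bulk libraries fewer cells of a type and less RNA per cell cannot be told apart. There was 1 library per condition and day, so no difference had a replicate check and none was tested. A gene was called higher or lower at day 21 where both net changes were at least 1, a 2-fold difference on the scale used.

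TAL1 and LMO2 are partners in DNA-bound complexes that direct blood formation, and FLI1 and GATA2 are transcription factors of early blood and endothelial cells. Together they can turn fibroblasts into blood progenitors, which go on to form granulocytes, macrophages, red cells, mast cells and megakaryocytes. Neutrophils store antimicrobial proteins in granules, eosinophils store major basic protein and ribonucleases, and embryonic red cells use globin genes such as Hba-x that adult red cells no longer use.

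The libraries of the 2 days differed in ways that bear on every comparison. The 4 Y-linked genes Eif2s3y, Ddx3y, Kdm5d and Uty had 5.08 to 40.8 FPKM in all 4 libraries of day 12, including uFIB, and at most 0.0244 FPKM in all 4 of day 21. The 2 days thus differed in the share of male cells, and day and source of the fibroblasts cannot be told apart. In uFIB, neutrophil transcripts were present at a low level at day 21: the 17 neutrophil genes summed to 59.7 FPKM at day 12 and 371 FPKM at day 21, against 38517 and 17000 in SL and 22810 and 10491 in SFGL. The smallest common step between low values, which is larger in a shallower library, was 2.61 times larger at day 21 than at day 12 in SL, 1.47 times in SFGL and 0.704 times in uFIB, so low values of the treated cultures were less precise at day 21. The number of reads behind a value is not known.

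Defining markers were compared with the labels. The 6 fibroblast markers summed to 7084 and 5514 FPKM in uFIB at day 12 and 21, to 2476 and 1539 in SL and to 2014 and 1224 in SFGL. The 4 pan-leukocyte markers, which include Ptprc (CD45) and Coro1a, summed to 1.14 and 2.83 FPKM in uFIB, to 461 and 194 in SL and to 561 and 323 in SFGL. Both treated cultures thus held leukocyte and fibroblast transcripts on both days, and both sums were lower at day 21. Among the fibroblast markers, however, Dcn was higher at day 21 in both. The macrophage and mast cell marker sums were lower too. The red cell marker sum went from 115 to 122 FPKM in SL and from 52.4 to 120 in SFGL. That of megakaryocytes went from 77.9 to 86.4 in SL and from 135 to 164 in SFGL. Endothelial markers were low, with sums from 11.1 to 28.4 FPKM in the treated libraries. The reprogramming factors were all high in SFGL. Tal1 had 62.0 and 347 FPKM in SL at day 12 and 21 and 58.0 and 119 in SFGL, and Lmo2 had 57.0 and 150 in SL and 48.4 and 128 in SFGL. Fli1 went from 46.7 to 34.4 FPKM in SL and from 41.2 to 27.8 in SFGL. Gata2 went from 68.8 to 62.6 in SL and from 110 to 132 in SFGL. None of the 4 factors was called in either direction. Without subtraction, however, Lmo2 and Tal1 were at least 2-fold higher at day 21 in both treated cultures. Their changes in SL and SFGL were 1.39 and 1.39 for Lmo2 and 2.47 and 1.02 for Tal1. In uFIB Lmo2 went from 0.499 to 2.28 FPKM and Tal1 from 0.0414 to 0.415. This left net changes of 0.25 and 0.25 for Lmo2 and of 2.02 and 0.58 for Tal1. RNA from the vectors and from the cells' own genes was not separated here.

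By the 2-fold limit, 94 genes (1.41% of 6651) were called higher and 253 (3.8%) were called lower at day 21. Over all 6651 genes the median net change was -0.07 in SL and -0.05 in SFGL. SL and SFGL share the uFIB libraries, so the likeness of their net changes is partly built in. With SL alone 133 genes (2%) were higher and 360 (5.41%) lower, and with SFGL alone 162 (2.44%) were higher and 315 (4.74%) lower. No gene had net changes of at least 1 in opposite directions in the 2 cultures.

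**Figure D1:**
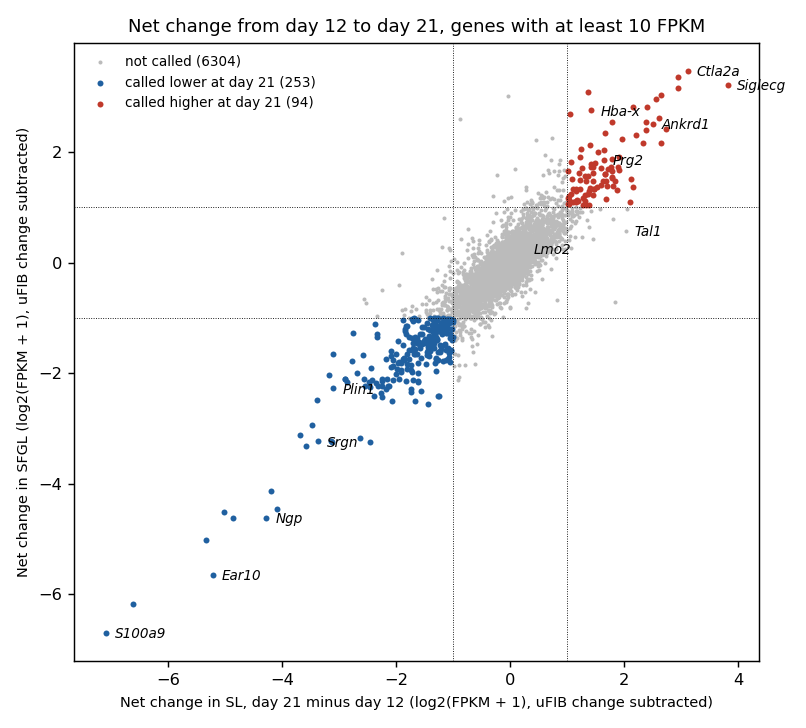
Net change from day 12 to day 21 in SL (x axis) and SFGL (y axis) on log2(FPKM + 1) after subtraction of the uFIB change, for the 6651 genes with at least 10 FPKM in a treated library. Each point is a gene, dotted lines mark a net change of 1, red points are the 94 genes called higher and blue points the 253 called lower; the blue points reach further from 0, to S100a9 at -7.10 and -6.70. Both axes share the same uFIB libraries.

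A net change has 2 parts, the change of the treated culture and the change of uFIB, and both contributed. Of the 253 genes called lower, 238 had lower values at day 21 in both treated cultures, against 58.95% of all 6651 genes. The treated values enter the net changes, so such shares are partly built in. Without any subtraction 112 of the 253 were at least 2-fold lower in both, where 2.2% of all 6651 genes were. In 60 the uFIB change was larger than the mean treated change, as it was in 2766 of all 6651 genes. In 49 uFIB was at least 2-fold higher at day 21, where 1.25% of all genes were. Of the 94 called higher, 86 had higher values in both treated cultures, against 22% of all genes. In both cultures 46 were at least 2-fold higher, against 1.08% of all genes. In 28 of the 94 the uFIB change was the larger, and in 18 uFIB was at least 2-fold lower, where 0.887% of all genes were. The starting levels differed too, but the day-12 values enter the net changes, so part of this difference is built in. At day 12, 165 of the 253 lower genes were at least 4-fold above uFIB in both treated cultures. So were 5 of the 94 higher genes and 570 of all 6651. Of the 94 higher genes, 58 were below uFIB in both treated cultures at day 12, as were 2462 of all 6651.

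**Figure D2:**
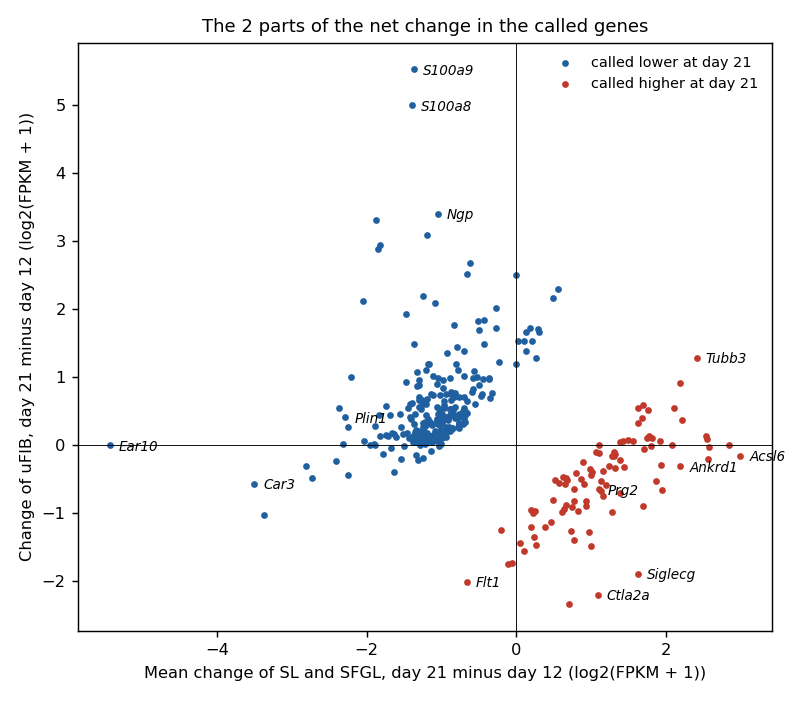
Change from day 12 to day 21 of the called genes in the treated cultures (x axis, mean of SL and SFGL) and in uFIB (y axis), both on log2(FPKM + 1). Most blue points (called lower) lie left of 0 and above 0 in uFIB, with S100a9 and S100a8 at uFIB changes of 5.53 and 5.00; Acsl6 (uFIB change -0.15) and Ear10 (0.00) had almost no change in uFIB, and in Flt1 (-2.00) the treated cultures were lower too.

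Neutrophil granule genes were among the genes with the largest negative net changes. S100a8 and S100a9 encode the subunits of calprotectin, a metal-binding protein that makes up much of the neutrophil cytoplasm. S100a8 went from 13249 to 4309 FPKM in SL and from 6209 to 2740 in SFGL, while uFIB went from 2.97 to 126. S100a9 had 8455 and 4130 FPKM at day 12, 2841 and 1837 at day 21, and 0.585 and 72.1 in uFIB. Both genes were thus 2.25 to 3.07 times lower in the treated cultures, whereas their net changes of -6.62 and -6.18 (S100a8) and -7.10 and -6.70 (S100a9) mostly held the increase in uFIB. Ngp, neutrophilic granule protein, was the most abundant of them in SFGL. It went from 10714 to 5816 FPKM in SL, from 7815 to 3358 in SFGL and from 2.17 to 32.5 in uFIB. Ltf (lactoferrin, an iron-binding granule protein) went from 712 to 271 in SL and from 261 to 120 in SFGL, and Ly6c2, a surface protein of monocytes and neutrophils, from 1716 to 855 and from 1903 to 734. On both days the uFIB values of these genes lay below those of either treated culture.

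Of 17 neutrophil genes with at least 10 FPKM, 11 were called lower and 0 higher. The median net change of the list was -1.81 in SL and -1.78 in SFGL, and without subtraction it was -0.97 and -0.94. In 14 of the 17 both treated cultures were lower at day 21, as were 58.95% of all genes. Not every granule gene followed: Ctsg (cathepsin G) had 378 and 345 FPKM at day 12 and 509 and 390 at day 21, and was called lower only because uFIB went from 0.0687 to 2.40. Fcnb, a ficolin of granulocytes, had net changes of -0.06 and 0.35. These 2 genes were named after their values were seen. Across the list the uFIB level at day 21 was between 0.0856% and 15.6% of that in SL (median 1.46%). Against SFGL it was between 0.07335% and 24.2% (median 2.11%). The origin of the neutrophil transcripts in uFIB was not tested.

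A second set of strongly lower genes was the stefin A cluster of chromosome 16, small cysteine protease inhibitors abundant in mouse neutrophils. BC100530 went from 1075 to 263 FPKM in SL, from 576 to 175 in SFGL and from 0.234 to 11.3 in uFIB. Stfa2 went from 891 to 226 in SL and from 600 to 180 in SFGL, and Gm5483, Stfa2l1 and Stfa3 were also called lower. The 6 members that reached 10 FPKM, including BC117090, all had lower values in both treated cultures, as did 58.95% of all genes. BC117090, listed at 0 in uFIB on both days, still had net changes of -1.97 and -1.81. These genes are near-identical copies, so the split of reads between them is uncertain and they do not count as separate observations.

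The upstream sequences of S100a8, S100a9, Ngp and Stfa2 are shown because these genes were among the 15 with the largest negative net changes, with the sequences of Plin1, Hba-x and Ankrd1 for the adipocyte, red cell and higher genes described further on. Each is the 250 bases before an annotated start, 5′ to 3′ on the gene's strand, from RefSeq on GRCm38.p6. The Plin1 window lies partly inside the annotated gene, which reaches position 79732904 of chromosome 7. Capitals mark the letters AGATAA (for factors of the GATA family), GAGGAA (for ETS factors like PU.1), CAGCTG (an E-box) and GGAATG (for TEAD factors, added after the values were seen), on either strand.
S100a8 (chr3:90668821-90669070, plus strand): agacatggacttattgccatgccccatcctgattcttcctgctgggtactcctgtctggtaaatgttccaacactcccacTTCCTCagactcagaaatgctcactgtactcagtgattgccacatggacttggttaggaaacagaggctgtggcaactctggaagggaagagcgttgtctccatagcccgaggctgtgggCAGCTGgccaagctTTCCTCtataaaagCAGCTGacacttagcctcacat
S100a9 (chr3:90695722-90695971, minus strand): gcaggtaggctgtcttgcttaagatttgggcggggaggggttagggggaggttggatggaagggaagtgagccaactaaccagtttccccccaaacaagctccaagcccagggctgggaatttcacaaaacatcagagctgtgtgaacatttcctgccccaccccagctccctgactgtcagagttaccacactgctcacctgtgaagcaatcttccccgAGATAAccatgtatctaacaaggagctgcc
Ngp (chr9:110419558-110419807, plus strand): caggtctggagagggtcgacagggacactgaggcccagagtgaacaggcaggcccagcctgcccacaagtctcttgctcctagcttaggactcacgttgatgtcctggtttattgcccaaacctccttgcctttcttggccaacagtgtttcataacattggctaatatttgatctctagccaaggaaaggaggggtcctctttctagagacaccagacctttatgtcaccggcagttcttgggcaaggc
Stfa2 (chr16:36408364-36408613, minus strand): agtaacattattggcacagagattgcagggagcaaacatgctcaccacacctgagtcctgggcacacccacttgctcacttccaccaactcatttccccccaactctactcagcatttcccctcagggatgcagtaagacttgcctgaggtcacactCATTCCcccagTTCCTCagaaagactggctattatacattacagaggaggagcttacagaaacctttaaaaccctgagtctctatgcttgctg
Plin1 (chr7:79732777-79733026, minus strand): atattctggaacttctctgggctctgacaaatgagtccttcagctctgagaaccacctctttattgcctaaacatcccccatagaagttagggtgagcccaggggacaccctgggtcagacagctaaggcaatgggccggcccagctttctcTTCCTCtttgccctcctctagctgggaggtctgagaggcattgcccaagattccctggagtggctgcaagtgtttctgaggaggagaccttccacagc
Hba-x (chr11:32276350-32276599, plus strand): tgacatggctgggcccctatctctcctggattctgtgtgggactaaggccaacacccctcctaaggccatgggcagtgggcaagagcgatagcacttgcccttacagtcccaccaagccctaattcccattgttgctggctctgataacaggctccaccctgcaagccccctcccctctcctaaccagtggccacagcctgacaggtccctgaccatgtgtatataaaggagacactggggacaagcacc
Ankrd1 (chr19:36119845-36120094, minus strand): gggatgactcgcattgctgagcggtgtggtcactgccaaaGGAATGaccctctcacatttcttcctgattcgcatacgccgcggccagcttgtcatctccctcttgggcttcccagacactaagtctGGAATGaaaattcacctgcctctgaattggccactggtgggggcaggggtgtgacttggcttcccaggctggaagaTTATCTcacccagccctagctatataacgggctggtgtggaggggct
The S100a8 window held 2 ETS and 2 E-box matches, that of S100a9 held 1 GATA match, and that of Stfa2 held 1 ETS and 1 TEAD match. The Plin1 window held 1 ETS match, and that of Ankrd1 held 2 TEAD matches and 1 GATA match. Ngp and Hba-x held none of these letters. GAGGAA was found in 36.6% of the 254 promoters of the genes called lower, in 24.5% of the 102 promoters of those called higher, in 22.7% of those of all genes with at least 10 FPKM and in 23.3% of all 32851 promoters. For AGATAA the shares were 6.69%, 6.86%, 5.18% and 9.99%, for CAGCTG 11%, 19.6%, 11% and 13%, and for GGAATG 15%, 15.7%, 10.2% and 12.6%, in the same order. A gene with several starts has several overlapping promoters here, and a match of letters is not a binding site.

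Genes shared by all white blood cells were lower as well. Of the 17 leukocyte-wide genes 11 were called lower and 0 higher, and the median net change was -1.42 in SL and -1.15 in SFGL. All 17 had lower values in both treated cultures, as did 58.95% of all genes. Without subtraction the medians were -0.94 and -0.73. Then 3 of the 17 were at least 2-fold lower in both cultures, against 2.2% of all genes. Lcp1 (L-plastin, an actin-bundling protein) went from 268 to 107 FPKM in SL and from 274 to 108 in SFGL. Coro1a (coronin 1A, an actin regulator) went from 183 to 70.7 and from 180 to 75.4. Cd52, a small surface glycoprotein, went from 443 to 226 and from 479 to 140. In these 3 genes uFIB stayed at or below 2.33 FPKM on both days, and the treated cultures were 1.96 to 3.42 times lower at day 21. The uFIB changes of 1.49 for Cd52, 1.08 for Lcp1 and 0.56 for Coro1a still entered their net changes. Itgb2, the β2 integrin chain, went from 285 to 147 in SL and from 310 to 153 in SFGL. Ptprc itself was low, at 4.83 and 1.79 FPKM in SL and 2.86 and 1.89 in SFGL.

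Most macrophage and monocyte genes were lower too, with 15 of 18 lower at day 21 in both treated cultures and 0 higher in both. Over all genes these shares were 58.95% and 22%. Of 36 listed, 18 reached 10 FPKM, of which 10 were called lower, 0 higher, and the median net change was -1.71 in SL and -1.21 in SFGL. Without subtraction it was -1.06 and -0.49. Then 5 of the 18 were at least 2-fold lower in both cultures, against 2.2% of all genes. Taken over the mean of both net changes, the median was -1.47 at this limit, -0.99 with at least 1 FPKM and -0.27 with no filter. Itgam (CD11b) went from 156 to 64.1 FPKM in SL and from 111 to 52.8 in SFGL, and Fcer1g, the shared chain of Fc receptors, from 146 to 46.7 and from 170 to 67.5. Lyz2 (lysozyme) was called lower but differed between the cultures, from 2525 to 1429 in SL and from 1188 to 1048 in SFGL. Ccl9, a chemokine, was called lower although it went from 74.5 to 97.9 in SFGL, since uFIB went from 11.8 to 71.5. Csf1r, the M-CSF receptor that defines macrophages, was at 1.92 FPKM or less in every treated library, and Emr1 (F4/80) at 6.69 or less. Most of the called macrophage genes are also used by neutrophils.

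Among 16 blood transcription factors 4 were called lower, none higher, and 12 had both net changes below 0, as had 3170 of all 6651 genes. Sfpi1, the gene of PU.1, which directs myeloid cells, went from 156 to 81.6 FPKM in SL and from 171 to 102 in SFGL. Gfi1, a repressor needed for neutrophils, went from 62.4 to 36.5 and from 61.7 to 21.2, and Ikzf1 (Ikaros), from 39.1 to 18.8 and from 29.0 to 13.96. Klf1, the activator of red cell genes, went the other way, from 23.6 to 40.7 FPKM in SL and from 24.9 to 65.5 in SFGL, with net changes of 0.77 and 1.37 that did not both reach the limit.

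The direction for white cell genes depended on the control used. With the change of the libraries labelled FGL (Fli1, Gata2 and Lmo2) subtracted in place of that of uFIB, the median net change was 3.65 for the neutrophil list, 1.99 for the leukocyte-wide list and 1.12 for the macrophage list. The library labelled FGL at day 12 held blood transcripts, with 1229 FPKM of S100a8, 822 of Ngp and 7.04 of Tal1, which its label does not include. Over all genes, 1.26% were at least 2-fold higher and 5.52% at least 2-fold lower at day 21 in the libraries of this label. At day 21 S100a8 was at 5.56 and Ngp at 2.92 FPKM in the library of the same label. Where both treated values of a gene are given as lower at day 21, that holds whichever control is used.

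**Figure D3:**
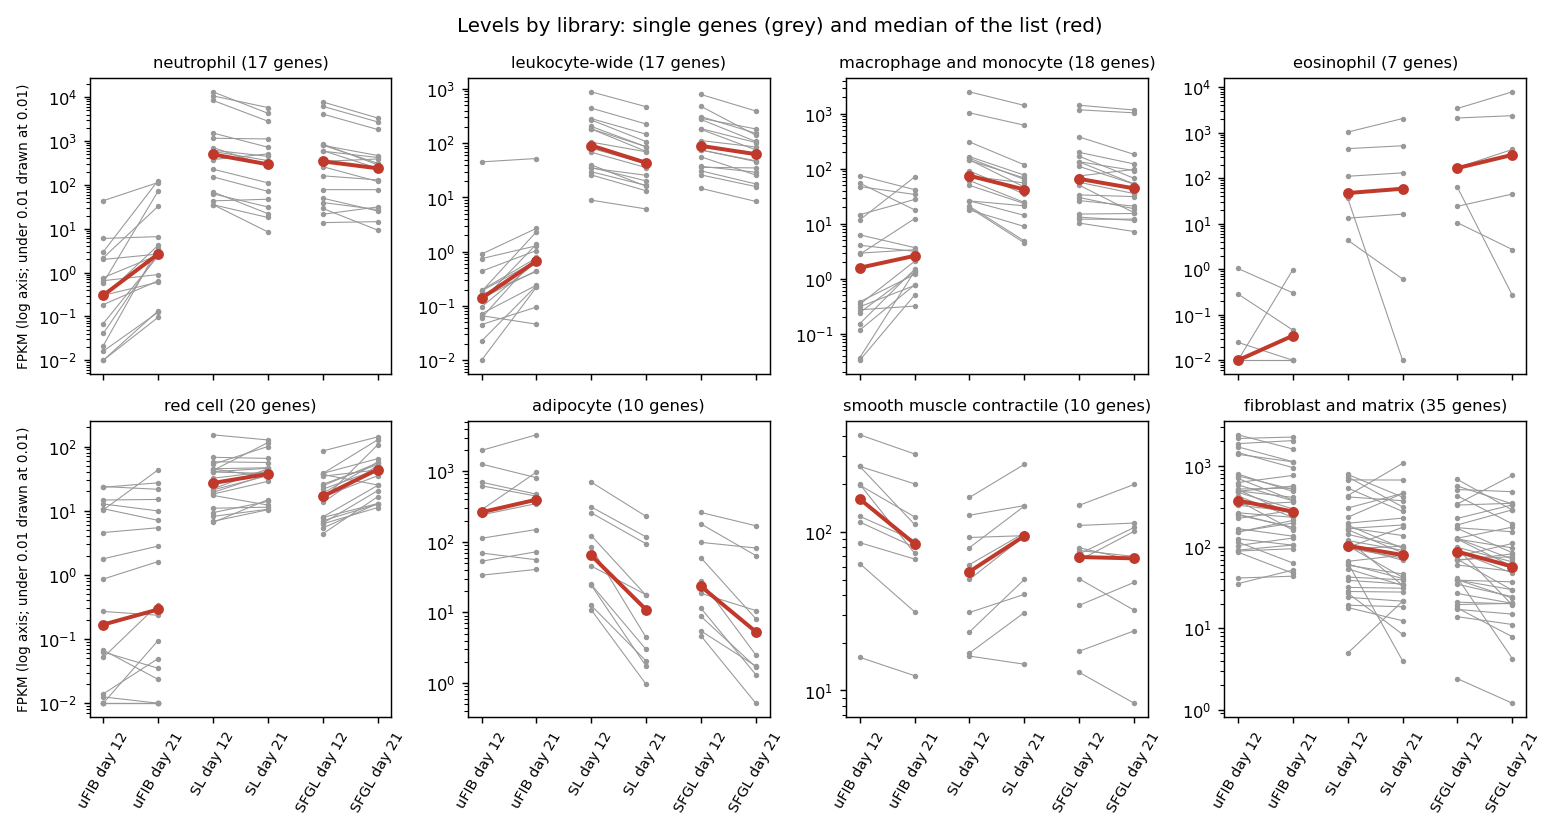
FPKM (log axis) of single genes (grey lines) and the list median (red) in uFIB, SL and SFGL at day 12 and day 21, for 8 gene lists, counting genes with at least 10 FPKM in a treated library. Neutrophil, leukocyte-wide and macrophage medians were lower at day 21 in SL and SFGL and higher in uFIB. The adipocyte medians were lower in SL (64.3 to 10.9) and SFGL (23.4 to 5.33) only. The red cell median was higher in SFGL (16.7 to 43.8) and, by less, in SL.

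Adipocyte genes were lower at day 21 with and without the subtraction of uFIB. Fat cells store triglyceride in droplets coated with perilipins, and MEF cultures are known to contain cells that can become adipocytes. Of 10 adipocyte genes 9 were called lower and 0 higher, all 10 were lower in both treated cultures, and 7 were at least 2-fold lower in both without subtraction. Over all 6651 genes 58.95% were lower in both and 2.2% were at least 2-fold lower in both. The median net change was -2.73 in SL and -2.08 in SFGL, and without subtraction -2.37 and -1.67. Car3, a carbonic anhydrase abundant in fat, went from 83.3 to 4.42 FPKM in SL and from 28.1 to 2.50 in SFGL, 18.8 and 11.2 times lower, while uFIB had 701 and 473. Plin1 (perilipin 1), whose upstream sequence is printed with those of the neutrophil genes, went from 24.9 to 2.99 and from 8.80 to 1.68, with 112 and 150 in uFIB. Cidec, a droplet fusion protein, went from 10.9 to 0.962 and from 4.66 to 0.518. Scd1, a fatty acid desaturase, differed little in SFGL, with 98.4 and 81.8 FPKM, and its net changes of -3.17 and -2.03 mostly held the uFIB values of 284 and 972. Gpd1, which makes the glycerol backbone of fats, stood outside the list and had net changes of -3.47 and -2.95. The adipocyte genes were lower in both treated cultures than in uFIB at day 12 except Scd1, which had 312 FPKM in SL. With the libraries labelled FGL as the control, the median net change was -2.21.

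Genes of lipid and sterol synthesis were not called as a group. Of 20 sterol and fatty acid genes 1 was called lower, namely Fasn (fatty acid synthase), which was nearly level in SL (40.1 to 38.7 FPKM) and SFGL (38.6 to 46.1) and went from 30.5 to 90.3 in uFIB. Of 18 lysosome and lipid handling genes, Apoe (356 to 169 in SL, 217 to 129 in SFGL) and the bone protease Ctsk (17.1 to 7.05, 17.2 to 6.51) were called lower.

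By their median, red cell genes were higher at day 21 in both treated cultures, by less in SL than in SFGL. Of 20 measured, 3 were called higher, namely Hba-x, Cpox and Add2, and 0 lower. The median net change was 0.18 in SL and 0.95 in SFGL, and without subtraction it was 0.33 and 1.08. In SL 6 of the 20 genes were lower at day 21, and in SFGL 1. Hba-x, the embryonic zeta globin gene, went from 42.5 to 115 FPKM in SL and from 14.8 to 106 in SFGL and was listed at 0 in uFIB on both days. Cpox, an enzyme of haem synthesis, went from 53.0 to 100.1 and from 37.9 to 127, and Add2 (β-adducin of the membrane skeleton) from 6.56 to 14.9 and from 4.35 to 16.5. Hbb-y, embryonic β-like globin, went from 21.1 to 35.2 in SL and from 13.4 to 51.0 in SFGL and missed the limit in SL. Slc4a1, the anion exchanger of red cells, had 68.0 and 65.4 FPKM in SL and 24.4 and 55.6 in SFGL. At day 12 SL was above SFGL in Hba-x, Cpox and Slc4a1, and at day 21 SFGL was above SL in Cpox and below it in Hba-x and Slc4a1. In 14 of the 20 genes both treated cultures were higher at day 21, as were 22% of all genes. The only globin genes measured were Hba-x, Hbb-y and Hbb-bh1. The listed adult globin genes, which have near-identical copies, were not among them.

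Eosinophil genes did not all move the same way. Of the 7 measured, 5 were higher at day 21 in both treated cultures, as were 22% of all genes. The other 2 were lower in both, as were 58.95% of all genes. Prg2, eosinophil major basic protein, was the most abundant gene called higher. It went from 1032 to 2049 FPKM in SL and from 3415 to 7901 in SFGL, with 1.04 and 0.303 in uFIB, and its net changes were 1.63 and 1.86. Prg3, its homologue, went from 47.3 to 58.8 and from 167 to 326. Ear10, an eosinophil-associated ribonuclease, went from 36.2 FPKM to a listed 0 in SL and from 62.7 to 0.268 in SFGL, with 0 in uFIB on both days. Ear10 belongs to a family of near-identical genes, and Ear1 went from 110 to 131 in SL and from 172 to 428 in SFGL, so the pair may share reads. Alox15, a lipoxygenase of eosinophils, went from 4.35 to 0.610 and from 10.5 to 2.71. Of the 7 genes measured 1 was called higher and 2 lower.

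Mast cell and platelet genes did not pass the limit apart from Srgn, which other blood cells use as well. Srgn (serglycin, the granule proteoglycan) went from 1381 to 856 FPKM in SL and from 2226 to 1515 in SFGL, and its net changes of -3.37 and -3.24 mostly held the uFIB values of 10.6 and 73.4. Kit, the receptor for Kit ligand, went from 10.6 to 5.38 and from 14.1 to 4.81, with net changes of -0.86 and -1.37. Tpsb2, a mast cell tryptase, was level in SL (3.49 and 3.57 FPKM) but went from 2.89 to 31.8 in SFGL, a net change of 3.01. Pf4, a platelet chemokine, went from 23.6 to 27.2 in SL and from 22.4 to 35.6 in SFGL, and none of the 7 platelet genes was called.

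**Figure D4:**
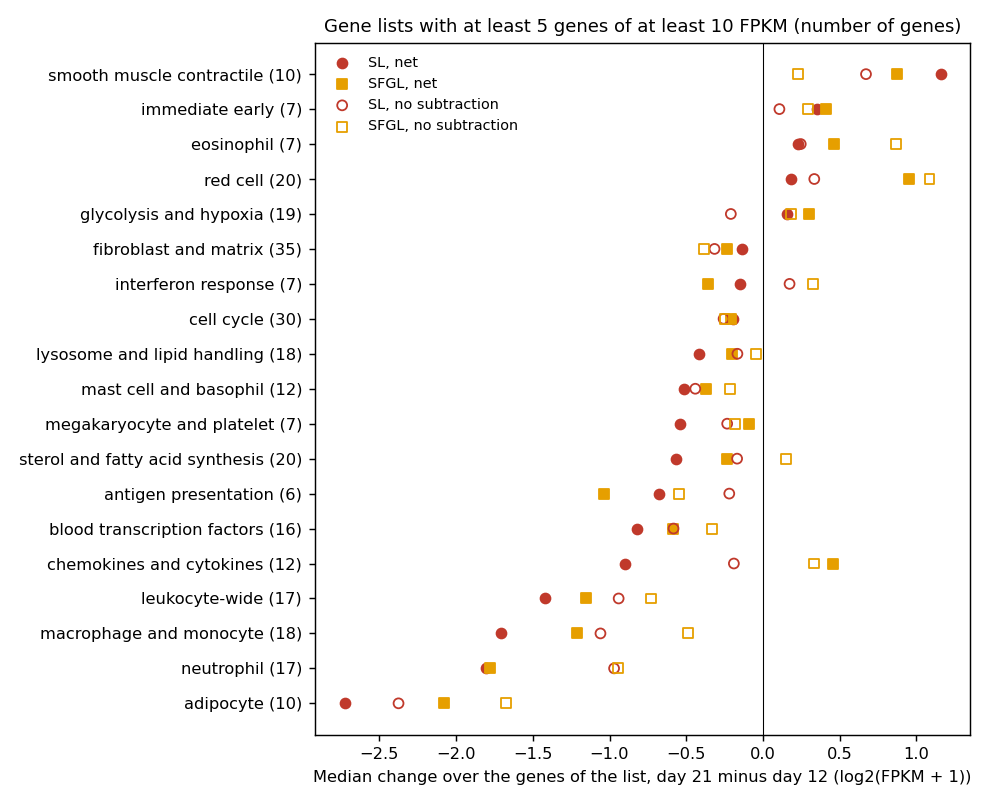
Median change from day 12 to day 21 over the genes of each list with at least 5 genes of at least 10 FPKM (number of genes in brackets), on log2(FPKM + 1), for SL (circles) and SFGL (squares), with the uFIB change subtracted (filled) and without (open). The adipocyte list lies lowest by net change in both cultures (-2.73 and -2.08), followed by the neutrophil list, and the contractile list is highest in SL (1.16).

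The genes with the largest positive net changes were not a single kind. Siglecg, a sialic-acid-binding receptor of B cells, went from 4.41 to 19.4 FPKM in SL and from 5.84 to 16.2 in SFGL, while uFIB went from 5.58 to 0.770. Ctla2a, a cathepsin inhibitor, went from 135 to 255 and from 98.7 to 239, and uFIB from 68.8 to 14.2. The uFIB part was as large in 9930013L23Rik (Cemip, a hyaluronan-binding protein), whose treated values were 23.7 and 36.4 in SL and 15.2 and 27.6 in SFGL, with 243 and 47.3 in uFIB. In the next genes uFIB played little part. Acsl6, a fatty acyl-CoA ligase of red cells and brain, went from 0.930 to 12.3 FPKM in SL and from 0.490 to 12.7 in SFGL. Apoa1, the main protein of high-density lipoprotein, went from 4.04 to 30.4 and from 1.73 to 21.5 and was listed at 0 in uFIB. Rap1gap went from 2.08 to 14.8 and from 1.46 to 15.7, and Muc6, a gel-forming mucin, from 2.17 to 15.3 and from 4.59 to 37.3. Cldn3, a tight junction claudin and the single epithelial gene measured, went from 1.26 to 11.5 and from 1.64 to 15.5, and Hoxd10, a posterior homeobox gene, from 1.13 to 13.6 and from 0.585 to 6.81. Hoxd10 also had 13.6 FPKM at day 21 in the library labelled FGL, and 1.96 at day 12. The further genes of the 15 highest were Ctgf, Ankrd1, Ccdc68, Itga3, Peg3 and Sept4, and all of them had net changes of at least 2.16 in both cultures.

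Ctgf and Ankrd1 had almost the same values in both treated cultures. Ctgf (connective tissue growth factor, a secreted matricellular protein) went from 51.3 to 201 FPKM in SL and from 51.5 to 202 in SFGL, with 171 and 107 in uFIB. Ankrd1, a titin-binding protein of stretched muscle and a target of YAP and TEAD in many cells, went from 13.9 to 66.6 and from 16.2 to 78.1, with 10.96 and 8.64 in uFIB. At day 12 Ctgf was lower in the treated cultures than in uFIB, and at day 21 it was higher than in uFIB of that day.

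Contractile genes of smooth muscle and myofibroblasts had the highest median net change in SL among the lists with at least 5 genes. Of 10 measured 2 were called higher and 0 lower, and the median net change was 1.16 in SL and 0.87 in SFGL. All 10 were lower at day 21 in uFIB, as were 4034 of all 6651 genes. Without subtraction the medians were 0.67 and 0.23. Acta2, smooth muscle actin, went from 50.1 to 93.8 FPKM in SL, from 76.2 to 70.0 in SFGL and from 258 to 111 in uFIB. Tpm2, a tropomyosin, went from 17.2 to 31.0 and from 17.7 to 23.7, with 63.0 and 31.3 in uFIB. Tagln (transgelin) went from 31.0 to 40.3 in SL and from 50.5 to 32.0 in SFGL, with net changes of 1.80 and 0.79. For Acta2 in SFGL the call thus came from uFIB.

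Fibroblast and matrix genes split by gene. Of 35 measured 4 were called higher and 3 lower, and the median net change was -0.14 in SL and -0.23 in SFGL. Fn1 (fibronectin) went from 431 to 1072 FPKM in SL and from 341 to 763 in SFGL, 2.49 and 2.24 times higher, while uFIB had 1387 and 1119. Timp3, a metalloprotease inhibitor, went from 99.0 to 175 and from 77.2 to 111, with 426 and 232 in uFIB. Dcn (decorin) went from 303 to 458 and from 226 to 331, with 753 and 513 in uFIB. Neither Timp3 nor Dcn was 2-fold higher in a treated culture without subtraction. Col6a2, a chain of collagen VI, went the other way, from 104 to 42.6 and from 70.6 to 29.5, and Mfap4, a microfibril protein, from 64.5 to 3.99 and from 41.8 to 4.26. The main fibrillar collagens were lower in the treated cultures without being called. Col1a1 went from 784 to 412 in SL and from 680 to 285 in SFGL, with 2409 and 1609 in uFIB. Thbs1 (thrombospondin 1) was called higher, but its treated values were 583 and 483 in SL and 443 and 459 in SFGL, and the net change held the uFIB values of 1492 and 443. Flt1, a receptor for VEGF and the single endothelial gene called, was lower in SL (17.9 to 11.2) and SFGL (11.6 to 6.73) and was called higher because uFIB went from 40.6 to 9.37.

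Other pathways gave few calls. None of 30 cell cycle genes was called. Their median net change was -0.20 in SL and -0.21 in SFGL. In both treated cultures 26 had lower values, as did 58.95% of all genes. Of 6 antigen presentation genes H2-K1, a class I heavy chain, was called lower, from 131 to 68.0 and from 150 to 68.1. Of 19 glycolysis and hypoxia genes Pfkfb3 was called lower (25.7 to 20.2 and 24.7 to 19.7). Its net changes mostly held the uFIB values of 10.9 and 19.4. Of 12 chemokine and cytokine genes 2 were called higher, 2 lower. Ccl7 went from 42.2 to 62.0 and from 48.7 to 66.1, with 62.3 and 35.1 in uFIB. Cxcl14 went from 8.89 to 3.27 and from 12.3 to 8.21, with 11.3 and 16.1 in uFIB. Of 7 immediate early genes Ier3 was called higher on the strength of uFIB (32.9 to 16.5). Of 3 neural and glial genes Tubb3, a tubulin, was called higher, from 6.31 to 38.6 and from 4.88 to 29.6. Tubb3 also went from 10.1 to 26.1 in uFIB and from 8.35 to 40.9 in the libraries labelled FGL. Of 2 cartilage and bone genes neither was called, and 0 of 10 skeletal muscle genes reached 10 FPKM.

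The called genes were then looked up in the stages of blood formation from embryonic stem cells (ESC) in the same series, namely mesoderm (MES), haemangioblast (HB), haematopoietic progenitors (HP) and macrophages (MAC). Haemogenic endothelium, the stage of the study between HB and HP, was not among those used. The authors normalized the stages separately, so only the stage of the highest value was used. Of 209 genes called lower with at least 1 FPKM in a stage, 158 (75.6%) were highest in MAC, against 54.8% of 6227 genes with at least 10 FPKM in the fibroblasts. Of 73 genes called higher, 18 (24.7%) were highest in MAC, 20 (27.4%) in ESC and 18 (24.7%) in HP. Over the 6227 genes the shares were 16.1% in ESC and 8.3% in HP. No test was made of these shares.

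**Figure D5:**
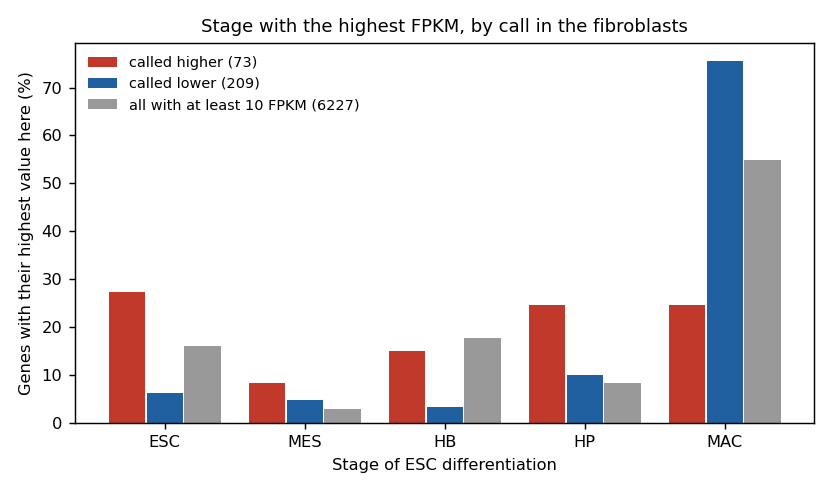
Share of genes (y axis, percent) whose highest FPKM was in each stage (x axis), for genes called higher (red, 73), called lower (blue, 209) and all genes with at least 10 FPKM in a treated library (grey, 6227), counting genes with at least 1 FPKM in a stage. Of the genes called lower 75.6% were highest in MAC, of those called higher 24.7%.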

How the data were processed

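Single RNA-seq libraries of MEFs (uFIB, SL, SFGL and those labelled FGL, each at day 12 and 21) were used. The authors deposited 1 table of FPKM values per gene and library; the submitters' processing notes name TopHat, Bowtie and Cufflinks, with build mm10 for the MEFs. FPKM of the differentiation stages, in which the authors had combined replicates, came from a second table, where 1 column of values was not used. Of 20495 rows, 363 with a repeated symbol, 832 on chromosomes X and Y and 1 without a chromosome were left out. Changes were computed on log2(FPKM + 1). Genes needed at least 10 FPKM in 1 of 4 treated libraries, and a call needed both net changes to be at least 1. The calculation of net changes and calls was checked on simulated data with known changes, which is no test of the calls themselves. Genes were matched to 25 lists, and positions and promoters came from RefSeq. Members, lists and limits were chosen with earlier results of these data known.

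Genes were named by a rule: the 4 factors, the 15 with the largest smaller net change in each direction, the 5 most abundant called in each direction, up to 4 per list by mean net change, the cell type markers and those nearest the 10 FPKM limit. With 1 library per condition no test was run; FPKM give no counts. Other pseudocounts, filters, scalings and controls were tried. Python 3.11.15, NumPy 2.4.6, pandas 2.3.3 and matplotlib 3.10.9 were used. The result for a listed gene is not reported here.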

Additional observations from a re-analysis of the deposited data

Results flagged for a closer look

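In 16 called genes both treated cultures changed at least 2-fold in the direction of the call and uFIB at least 2-fold in the opposite direction; this difference was not tested. All but Siglecg were lower at day 21 in SL and SFGL. The uFIB change on log2(FPKM + 1) was 5.53 for S100a9, 5.00 for S100a8, 3.32 for BC100530, 3.09 for Ly6c2, 2.95 for Gm5483, 2.89 for Stfa2, 2.19 for Ltf and 2.12 for Stfa2l1. It was 2.09 for Serpinb1a, 1.93 for Stfa3, 1.19 for Itgam, 1.11 for Tyrobp, 1.08 for Lcp1, 1.02 for Cyfip2 and 1.002 for Gpd1, and -1.89 for Siglecg.

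The library labelled FGL at day 12, which entered no comparison of levels, held blood transcripts well above uFIB. Its neutrophil list summed to 3397 FPKM (59.7 in uFIB at day 12), its leukocyte-wide list to 311.7 (48.9 in uFIB) and its eosinophil list to 604 (1.35 in uFIB). At day 21 the sums in the library of that label were 137, 60.9 and 0.996 FPKM. Across the leukocyte-wide list its values at day 12 were 6.61% to 14.3% of those of SL at day 12, and across the neutrophil list 4.58% to 20.1%.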

How the results depend on the processing

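No paired analysis was possible because each fibroblast condition had 1 library per day and the samples that share replicate numbers in the labels, the differentiation stages, entered no test. The number of genes with the same sign was 5365 and changed to 9279 with at least 1 FPKM, 2323 with at least 30 FPKM and 12224 with no filter. The number called higher (94) was 61 with a pseudocount of 5, 261 with the change of the libraries labelled FGL subtracted, 179 with at least 1 FPKM, 50 with at least 30 FPKM, 191 with no filter, 16 with net changes of at least 2 and 162 with SFGL alone. The number called lower (253) was 131, 103, 363, 152, 387, 44 and 315 under these same alternatives, and 146 with no subtraction. It was 330 with a pseudocount of 0.1 and 226 with scaling to the same upper quartile, where 226 of the 253 genes remained; of the 94 higher genes 94 remained among 97. Without subtraction 46 of the 94 and 112 of the 253 remained, and 0 called genes were called in the opposite direction. With the FGL change subtracted 67 of the 253 genes called lower were called higher. The mean net change then turned positive for these genes, each with its value, BC100530 5.284, Cd52 3.161, Coro1a 2.692, Fcer1g 1.699, Gfi1 1.496, Gm5483 4.468, Ikzf1 1.471, Itgam 2.898, Itgb2 2.979, Laptm5 2.964, Lcp1 2.961, Ltf 4.456, Ly6c2 5.549, Lyz2 4.177, Ngp 6.663, Olfm4 4.871, S100a8 6.152, S100a9 7.439, Sfpi1 3.211, Srgn 0.279, Stfa2 4.917, Stfa2l1 4.013 and Stfa3 3.896. The median over the neutrophil, macrophage and leukocyte-wide lists turned to 3.65, 1.12 and 1.99. Without subtraction the mean change turned to -0.11 for Thbs1, -0.67 for Flt1 and 0.10 for Fasn. The median over the mean of both net changes moved from -1.89 to -1.20 for the neutrophil list with a pseudocount of 5 and from -1.24 to -2.15 for the leukocyte-wide list with a pseudocount of 0.1. The cause was not tested.

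With 1 library per condition the spread between cultures is not known. Levels near 1 FPKM were less precise in the treated day-21 libraries than at day 12, and the pseudocount of 1 understates changes there. The days differed in Y-linked genes, and uFIB held blood transcripts at day 21, so that the net changes of neutrophil and leukocyte-wide genes had larger medians than the changes of the treated cultures.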
